A study of Mus musculus with 4 samples.

Results

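The genes of mast cells and basophils described here were fixed by symbol: Cpa3, Cma1, Mcpt4, Mcpt8, Tpsb2, Ms4a2, Fcer1a and Hdc. All 8 were found on the array by matching the accession of each probe to RefSeq, out of 20284 genes matched in the same way, and they were read by 9 probes, with 2 for Tpsb2. Whole spleens came from 5-day-old ICR mice, an outbred stock, whose dams had received carbon black nanoparticles (CB-NP) or distilled water. Dams were given 2 intranasal instillations, the earlier on gestational day 5 and the later on day 9, each holding CB-NP at 95 microg/kg or, for controls, 1 mL/kg of distilled water. Spleen RNA was pooled for each sex and treatment, which gave 4 pools, a control and a CB-NP pool in males and the same in females, each read on 1 single-colour array. The number of animals in a pool is not given in the sources used here. With 1 pool per group there was no replicate spread, so differences within a sex carry no test, and their error below is the scanner error of the difference, which covers only the reading of the spots.

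Mast cells and basophils are granulocytes that bind immunoglobulin E (IgE) through a receptor made of an alpha chain (Fcer1a), a beta chain (Ms4a2) and a gamma chain (Fcer1g) shared with other receptors. Their granules hold proteases and histamine, which Hdc, histidine decarboxylase, makes from histidine. Connective tissue type mast cells store carboxypeptidase A3 (Cpa3), the chymases Cma1 (mast cell protease 5) and Mcpt4 and the tryptase Tpsb2 (mast cell protease 6), whereas mouse basophils are known for Mcpt8 and the related protease Prss34. Hdc, Kit, Gata2 and Fcer1g are also active in other blood cells.

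Across the 4 arrays, the share of the 59305 non-control spots called well above background was 57.29% to 59.01%, and no spot was saturated. Tlx1, a transcription factor gene of the spleen, was well above background in all 4 pools, at log2 levels of 1.93 to 2.01. A log2 level is the log2 processed signal minus that array's 75th percentile, so 0 marks the 75th percentile. The number of arrays limits the precision of every value below.

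Of the 8 genes, 6 were well above background in all 4 pools (Cpa3, Cma1, Mcpt4, Mcpt8, Tpsb2 and Hdc). Both IgE receptor chains among the 8 were not. Ms4a2 was not well above background on any of the 4 arrays, with processed signals of 2.46 and 2.26 intensity units in the male pools (control, then CB-NP) and 2.69 and 2.60 in the female ones. Fcer1a was well above background on 1 array, the female control, at 26.6 units, beside 9.61, 3.13 and 12.1 units in male control, male CB-NP and female CB-NP. Ms4a2 and Fcer1a were read by 1 probe each, and signals of different probes do not give the relative abundance of their transcripts. The shared gamma chain gene, Fcer1g, was well above background in all 4 pools. The plot of the 8 genes shows the level in each pool.

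**Figure D1:**
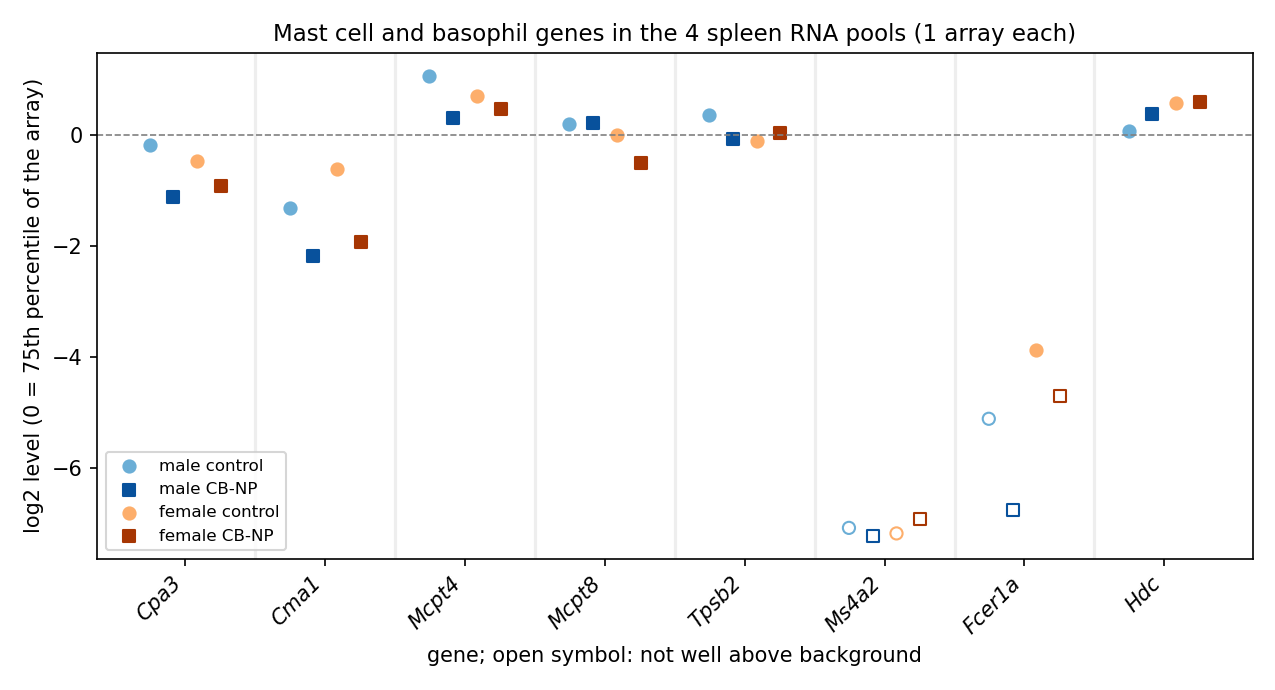
Log2 level (0 is the 75th percentile of each array) of the 8 mast cell and basophil genes in the 4 spleen RNA pools, 1 array each, with circles for controls, squares for CB-NP and open symbols where the probe was not well above background. Ms4a2 is open in all 4 pools and Fcer1a in 3, and the CB-NP squares of Cpa3, Cma1 and Mcpt4 lie below both control circles.

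The comparison of CB-NP with control pools asked which transcripts of the neonatal spleen differed after maternal exposure. The proteases Cpa3, Cma1 and Mcpt4 were lower in both CB-NP pools than in both control pools. Mcpt8, the basophil protease, was lower in the female CB-NP pool and nearly level in the male pair. Tpsb2 was lower with CB-NP in males, and its probes differed in direction in the female pair. Hdc was not lower in either pair. In bulk RNA, fewer cells of a type and less RNA per cell cannot be told apart.

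Cpa3, whose product trims peptides and toxins in the mast cell granule, had log2 levels of -0.18 and -1.11 in males (control, then CB-NP) and -0.46 and -0.91 in females. Both control pools were above both CB-NP pools. The log2 difference of CB-NP minus control was -0.94 in males (scanner error 0.21), or 1.91-fold lower. In females it was -0.44 (scanner error 0.20), or 1.36-fold lower. Of all genes compared, 0.613% in males and 5.62% in females had a difference as low.

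Cma1, a chymase of connective tissue type mast cells whose product has elastase-like activity, had levels of -1.31 and -2.18 in males (control, then CB-NP) and -0.61 and -1.92 in females. The female control stood highest, and the CB-NP pools lay close together. The log2 difference was -0.87 in males (scanner error 0.21), or 1.83-fold lower. In females it was -1.31 (scanner error 0.21), or 2.48-fold lower, a value as low as in 0.242% of the genes compared. With normexp background correction the male difference was -0.54 and the female difference -0.81, so that Cma1 no longer reached 2-fold.

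Mcpt4, a connective tissue type chymase, had levels of 1.07 and 0.32 in males (control, then CB-NP) and 0.71 and 0.48 in females. The CB-NP pools were again the lower ones, by 0.75 in males and by a smaller step in females. The differences were -0.75 in males (scanner error 0.20) and -0.23 in females (scanner error 0.20), the latter close to the scanner error. In males 1.07% of genes had a difference as low as that of Mcpt4, and in females 22.2% had.

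Mcpt8, the basophil protease, had levels of 0.20 and 0.22 in males (control, then CB-NP) and 0.01 and -0.51 in females. Only the female CB-NP pool stood apart among the 4. The log2 difference was 0.02 in males (scanner error 0.20) and -0.52 in females (scanner error 0.21), or 1.44-fold lower. Between the CB-NP pools, Mcpt8 was lower in females than in males by 1.66-fold. The difference between the sexes in the CB-NP effect was not tested, since each value comes from 1 pair of pools.

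Tpsb2, the tryptase that is stored in mast cell granules bound to heparin, had levels of 0.37 and -0.07 in males (control, then CB-NP) and -0.10 and 0.04 in females, from its brighter probe. The male control pool was the highest, and the other pools lay close to each other. The differences were -0.44 in males (scanner error 0.20) and 0.14 in females (scanner error 0.20). Its other probe gave -0.51 in males and -0.21 in females, so the direction in females depended on the probe. A related tryptase, Tpsab1, had no probe matched here, and shared hybridisation was not tested.

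Hdc, which makes histamine, had levels of 0.07 and 0.39 in males (control, then CB-NP) and 0.58 and 0.60 in females. The male control was the lowest pool and the female pools were nearly equal. The differences were 0.32 in males (scanner error 0.20) and 0.02 in females (scanner error 0.20). Slc18a2, which loads histamine into granules, had differences of 0.31 and 0.06. In the female pair the reading of Fcer1a was 1.78-fold lower with CB-NP. That ratio uses a CB-NP reading that was not well above background and makes no allowance for scanner error. No fold is given for Fcer1a in males, where neither array was well above background. The plot of differences sets these values beside those of related proteases.

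**Figure D2:**
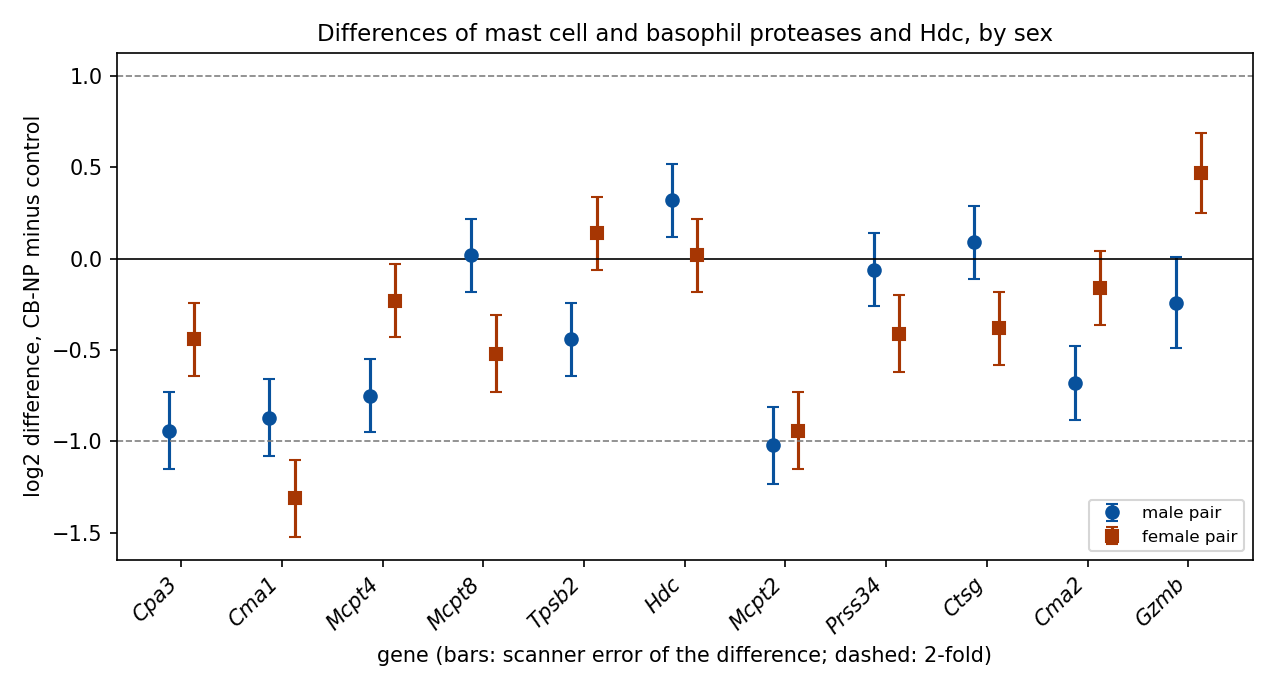
Log2 difference of CB-NP minus control in the male pair (circles) and female pair (squares) for the 6 of the 8 genes and the 5 other listed proteases that were well above background on all 4 arrays. Bars are the scanner error of the difference and dashed lines mark 2-fold. Cma1 in females (-1.31) and Mcpt2 in males (-1.02) lie beyond the 2-fold line.

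In either direction, 0.860% of genes in the male pair and 1.09% in the female pair differed by at least 2-fold. At least 2-fold lower were 0 of the 6 measured genes in the male pair, where 0.508% of 14186 genes were so, and 1 of 6, Cma1, in the female pair, where 0.433% of 14075 genes were so. Higher by at least 2-fold were 0 of 6 in each pair, beside 0.352% and 0.661% of genes. Below 0 were 4 of 6 in males and 4 of 6 in females, against 54.8% and 56.7% of all genes. The median of the 6 was -0.59 in males and -0.34 in females, while that of all genes was -0.02 and -0.04. Both CB-NP pools were below both control pools for 3 of 6 genes, against 32.7% of the 13933 genes well above background on all 4 arrays. That share is large, so this ordering by itself did not set the 3 genes apart from the rest of the array.

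A limma model over all 4 arrays, which included sex and kept 1 residual degree of freedom, tested the CB-NP effect shared by the sexes over 14502 genes. Of the 6 genes tested here, 0 passed an adjusted p of 0.05, beside 0.0827% of all genes, and 2 had an unadjusted p under 0.05, beside 13.8% of all genes. Cma1 had a shared log2 difference of -1.09 (SE 0.15, limma adjusted p = 0.292) and was lower in 2 of 2 pairs. Cpa3 had -0.69 (SE 0.16, limma adjusted p = 0.329), also in 2 of 2 pairs. The adjusted p by limma was 0.364 for Mcpt4, 0.505 for Mcpt8, 0.68 for Tpsb2 and 0.515 for Hdc. Those of Cma1, Cpa3 and Mcpt4 fell under 0.05 with some alternative settings, at 1.39e-05, 0.00427 and 0.00287 with normexp, while the highest over the alternatives, with no detection filter, was 0.705 for each of them.

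The male and female control pools were compared to see how far these genes differed without exposure. Cma1 was higher in control females than in control males by 0.70 on the log2 scale (scanner error 0.21), and Hdc by 0.51 (scanner error 0.20). Of all genes, 99.1% and 97.8% had a difference as low as these or lower. Tpsb2 was lower in the female control (-0.48), as were Mcpt4 (-0.36), Cpa3 (-0.29) and Mcpt8 (-0.19). In control females the reading of Fcer1a exceeded that in control males, which was not well above background, by 2.37-fold. None of the 6 measured genes differed by 2-fold between the controls, beside 0.777% of 14164 genes that did. For Cma1, the step between control pools (0.70) was nearly as large as the male CB-NP step (-0.87), whereas for Cpa3 the step between controls was -0.29 and the male CB-NP step -0.94.

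Cma1, Mcpt4 and Mcpt8 lie in 1 cluster of serine protease genes on chromosome 14, together with other mast cell proteases, Ctsg (cathepsin G of neutrophil precursors) and the granzymes of cytotoxic lymphocytes. From Cma1 to Gzmb the cluster holds 15 protein-coding genes in RefSeq order, all with a matched probe. All 4 arrays showed 7 of them well above background, and another 7 were so on none. Those on none were Mcpt9 and the granzymes Gzme, Gzmd, Gzmg, Gzmn, Gzmf and Gzmc.

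Mcpt2, a chymase known from mucosal mast cells, had levels of -1.28 and -2.30 in males (control, then CB-NP) and -0.92 and -1.86 in females. It was 2.02-fold lower in males (-1.02, scanner error 0.21) and 1.91-fold lower in females (-0.94, scanner error 0.21), and its limma adjusted p was 0.275. Mcpt1, also mucosal, was well above background in the control pools and in neither CB-NP pool, which puts it at least 1.97-fold lower with CB-NP in males, and at least 1.63-fold in females. Cma2, another chymase gene close to Cma1, had differences of -0.68 and -0.16, near those of Mcpt4 (-0.75 and -0.23).

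Farther along the cluster the pattern was another one. Ctsg had differences of 0.09 in males and -0.38 in females, and Gzmb, the granzyme at the far end, -0.24 and 0.47. In the male pair Cma1, Cma2, Mcpt2 and Mcpt4 had differences from -1.02 to -0.68, while Mcpt8 and Ctsg differed by less than 0.20, their scanner error. Probe sequences were not used here, and hybridisation of 1 probe to several of these related transcripts was not tested.

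**Figure D3:**
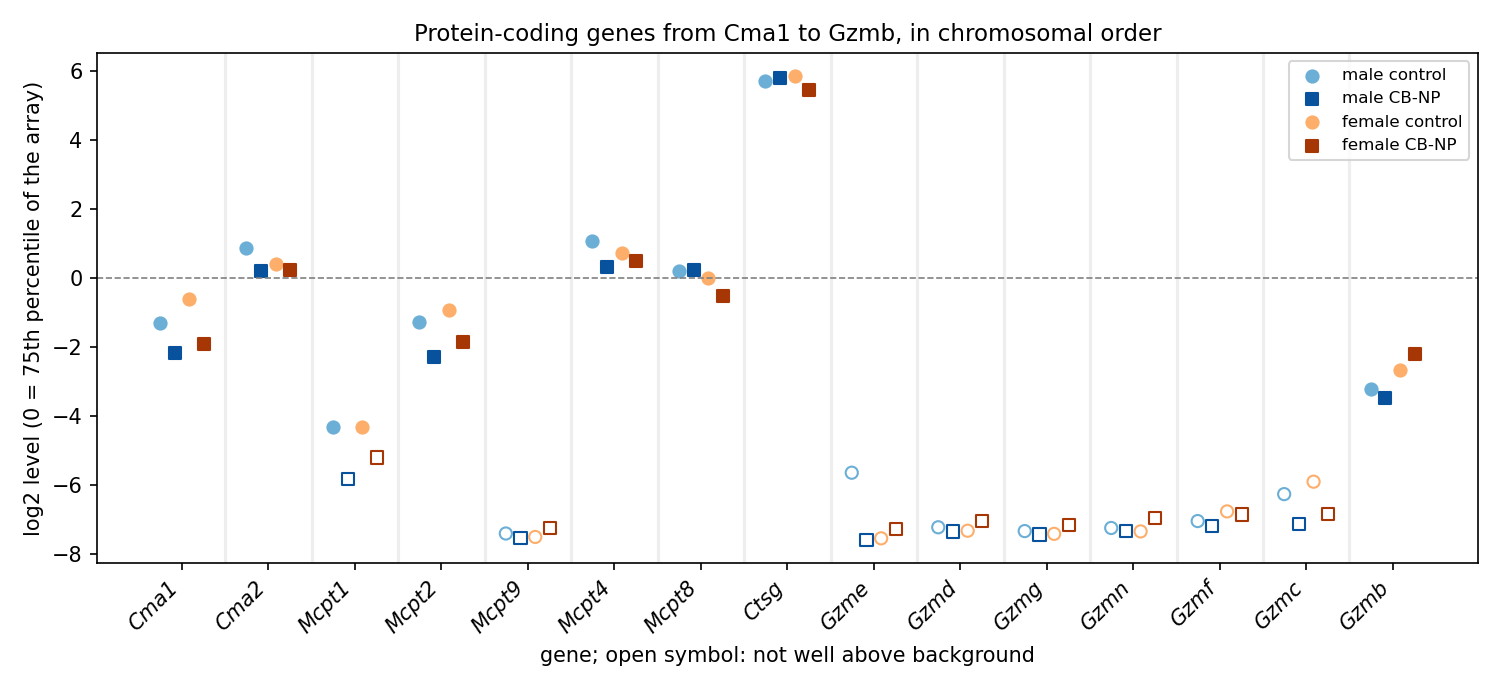
Log2 level (0 is the 75th percentile of each array) of the 15 protein-coding genes from Cma1 to Gzmb, in chromosomal order, in the 4 pools, with circles for controls, squares for CB-NP and open symbols where the probe was not well above background. The CB-NP squares of Cma1, Cma2, Mcpt1, Mcpt2 and Mcpt4 lie below both control circles, and 7 genes are open in all 4 pools.

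The stretches just upstream of the start sites are shown for the 4 proteases, since Cpa3, Cma1 and Mcpt4 were the genes lower in both sexes and Mcpt8 was not. GATA factors, among them GATA2, are known regulators of mast cell and basophil genes. The sequences are the 150 bases before the start site from RefSeq (GRCm38.p6, gene strand, which is the minus strand for all 4), with capitals marking AGATAA or TGATAA on either strand and TATAAA.
Cpa3, chr3:20242182-20242331: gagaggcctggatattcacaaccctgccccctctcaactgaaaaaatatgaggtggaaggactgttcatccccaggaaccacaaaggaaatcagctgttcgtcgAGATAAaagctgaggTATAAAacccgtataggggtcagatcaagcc
Cma1, chr14:55944676-55944825: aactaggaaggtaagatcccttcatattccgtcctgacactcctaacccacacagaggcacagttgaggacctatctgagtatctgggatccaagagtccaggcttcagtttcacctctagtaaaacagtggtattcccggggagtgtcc
Mcpt4, chr14:56062311-56062460: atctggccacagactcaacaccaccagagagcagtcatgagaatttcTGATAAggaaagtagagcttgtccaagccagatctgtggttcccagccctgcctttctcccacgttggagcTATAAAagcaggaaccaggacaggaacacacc
Mcpt8, chr14:56085198-56085347: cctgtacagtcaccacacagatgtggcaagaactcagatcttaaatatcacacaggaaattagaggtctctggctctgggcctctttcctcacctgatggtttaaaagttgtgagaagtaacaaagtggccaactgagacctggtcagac

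In Cpa3 the letters AGATAA stand from base -46 to base -41 before the start site and TATAAA from -31 to -26. In Mcpt4 TGATAA stands from -103 to -98 and TATAAA from -32 to -27. The windows of Cma1 and Mcpt8 held neither AGATAA nor TGATAA on either strand. Other forms of the GATA motif were not searched, so these windows cannot be called free of them. The letters ctatct in the Cma1 window, AGATAG on the other strand, were not among the forms searched. RefSeq entries were found for 7 of the 8 genes, all but Tpsb2. In the 250 bases before the start, AGATAA or TGATAA stood in 4 of these 7, namely Cpa3, Mcpt4, Fcer1a (1 match) and Ms4a2 (3 matches), and in 16.6% of all 32851 promoters. TATAAA lay within bases 40 to 21 before the start in 1.87% of all promoters. A match describes letters only, and Fcer1a and Ms4a2, which hold matches, were at or near background here.

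Cpa3 and Mcpt8 were also compared with every gene by the shape of their 4 levels, as the root mean square distance between levels after each gene was centred on its own mean over the 4 pools. Among the 13759 genes that every array showed well above background, with predicted genes (symbols of LOC or Gm and a number) left out, the nearest to Cpa3 were Cilp2 (0.036), Zdhhc19 (0.050) and H2bu2 (0.061). Mcpt4 was the 15th nearest to Cpa3 (0.104), and Cma2 the 52nd (0.159). Tpsb2 stood at rank 1668 (0.281) and Cma1 at rank 8730 (0.402), the latter with its high female control level. Kit, the stem cell factor receptor of mast cells, stood at rank 8857.

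The genes nearest to Mcpt8 were Gpr157 (0.028), Hs3st2 (0.032) and Ghrh (0.051). Prss34, the other basophil protease, was the 10th nearest to Mcpt8 (0.065). Its levels were 0.22 and 0.16 in males (control, then CB-NP) and -0.15 and -0.55 in females, and its differences were -0.06 in males (scanner error 0.20) and -0.41 in females (scanner error 0.21). Both basophil proteases were thus lowest in the female CB-NP pool. The ranks of genes other than the 3 nearest were looked up after the values had been seen. They rest on 4 pools and are given with no test.

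**Figure D4:**
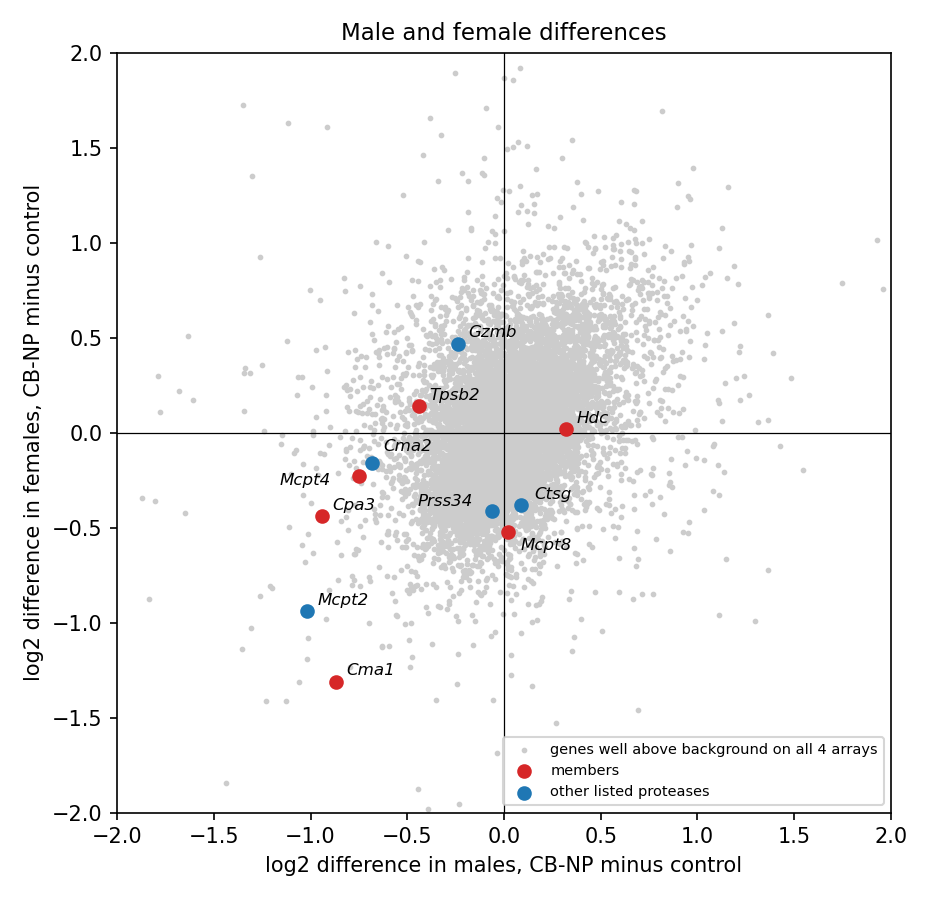
Log2 difference of CB-NP minus control in males (horizontal) and females (vertical) for the 13933 genes well above background on all 4 arrays (grey), with 21 genes outside the axes, the 6 measured mast cell and basophil genes (red) and 5 other listed proteases (blue). Cma1 and Mcpt2 lie low on both axes, Cpa3, Mcpt4 and Cma2 lie mainly to the left, and Mcpt8, Prss34 and Ctsg lie below the centre.

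The wider pathway was described by lists whose members are counted against 0. Of the other listed proteases, 4 of 5 measured were below 0 in each pair, beside 54.8% and 56.7% of all genes. The 5 were Mcpt2, Cma2, Prss34, Ctsg and Gzmb. Their medians, -0.24 in males and -0.38 in females, were the values of Gzmb and Ctsg. Those 2 are the genes of cytotoxic lymphocytes and of neutrophil precursors named above. Mcpt9 and Tpsg1 were not well above background on any array. Genes listed for IgE receptor signalling, most of which lymphocytes and other leukocytes also use, had medians of 0.29 and 0.20. They include Fcer2a, Fcgr2b, Inpp5d and Ptpn6, so the list is not limited to genes that carry the signal of the receptor. Above 0 were 14 of 16 in males and 12 of 16 in females, beside 45.2% and 43.3% of all genes. In this list Fcer1g, the shared gamma chain, had differences of 0.06 and -0.34, and Vav1, a guanine nucleotide exchange factor, 0.36 and 0.20. A dimmer Vav1 probe gave 0.37 and -0.15. The highest of the list were Fcer2a, which encodes CD23 on B cells (0.95 and 0.92), and the adaptor gene Lat2 (0.70 and 0.77), both named after their values were seen.

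The list of surface receptors, many of them shared with other cells, had medians of 0.07 in males and 0.04 in females. Above 0 were 11 of 13 and 9 of 13 measured genes, beside 45.2% and 43.3% of all genes. Single members lay farther out. Cd200r3, Cd200r4, Mrgprb1, Mrgprb2 and Ptgdr2 did not enter these medians, since none was well above background on both arrays of a pair. Crlf2, a chain of the receptor for thymic stromal lymphopoietin, had differences of 0.33 and 0.06. Itgb7, an integrin chain, had 0.42 and 0.50, and Ccr3, the eotaxin receptor, 0.54 and -0.38, both named after their values were seen. Kit had differences of 0.00 and 0.04, Il1rl1, the receptor for interleukin 33, 0.05 and 0.09, and Cd63, a granule membrane protein, 0.03 and 0.03. Dimmer probes of Il1rl1 gave -0.36 and -0.21, and 0.21 and 0.49, so its direction depended on the probe. Cd200r3 and Cd200r4 were not well above background on any array. Mrgprb2, the mast cell receptor for basic secretagogues, was so only in the male control.

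Transcription factors of these lineages had list medians of -0.01 and -0.04. Gata2 had levels of -0.64 and -0.71 in males (control, then CB-NP) and -0.97 and -0.66 in females, and differences of -0.07 and 0.31. Mitf, which drives mast cell protease genes, had 0.06 and 0.00, while a dimmer Mitf probe gave 0.27 and 0.57. Gata1 and Tal1, which erythroid cells also express, had -0.11 and -0.13, and 0.00 and -0.03. Runx1 had -0.40 and -0.04 and Spi1 -0.12 and -0.60, the members farthest from 0 in the male and the female pair, both named after their values were seen. A dimmer Runx1 probe gave 0.12 and -0.01. In females Spi1 was thus lower than Cpa3 (-0.44).

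Genes of histamine, lipid mediators and granules, Hdc among them, had list medians of 0.00 in males and -0.09 in females. In the female pair 11 of 14 were below 0, beside 56.7% of all genes, and in the male pair 7 of 14, beside 54.8%. Srgn, the proteoglycan core of granules, had 0.09 and -0.01, and Vamp8, a fusion protein of secretory granules, -0.09 and -0.34. Alox5, 5-lipoxygenase, and Hnmt, which degrades histamine, were each at -0.84 in females and at -0.02 and -0.10 in males, and were named after their values were seen. A dimmer probe of Hnmt gave -0.55 in males and -0.65 in females. Tph1, which makes serotonin in mast cells, was dim, at 16.3 units in the male control and 22.7 in the female control. It was well above background in neither CB-NP pool, at 7.47 units in males and 7.31 in females. This puts Tph1 at least 1.93-fold lower with CB-NP in males and at least 1.86-fold in females, with no allowance for scanner error. Tph1 was also named after the values were seen.

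Growth factors and cytokines of these cells were mostly below detection. Il3, Il5, Il6, Il9, Il13 and Csf2 were not well above background on any array. Kitl, the ligand of Kit, had differences of 0.07 and 0.33, and Il33, an alarmin, 0.17 and 0.34. The histamine receptor Hrh1 had differences of -0.06 and 0.15. Hrh4, the receptor on leukocytes, had -0.50 and 0.93, with signals of 16.1 to 27.6 units and scanner errors of 0.30. The plot of gene lists gives the medians and ranges.

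**Figure D5:**
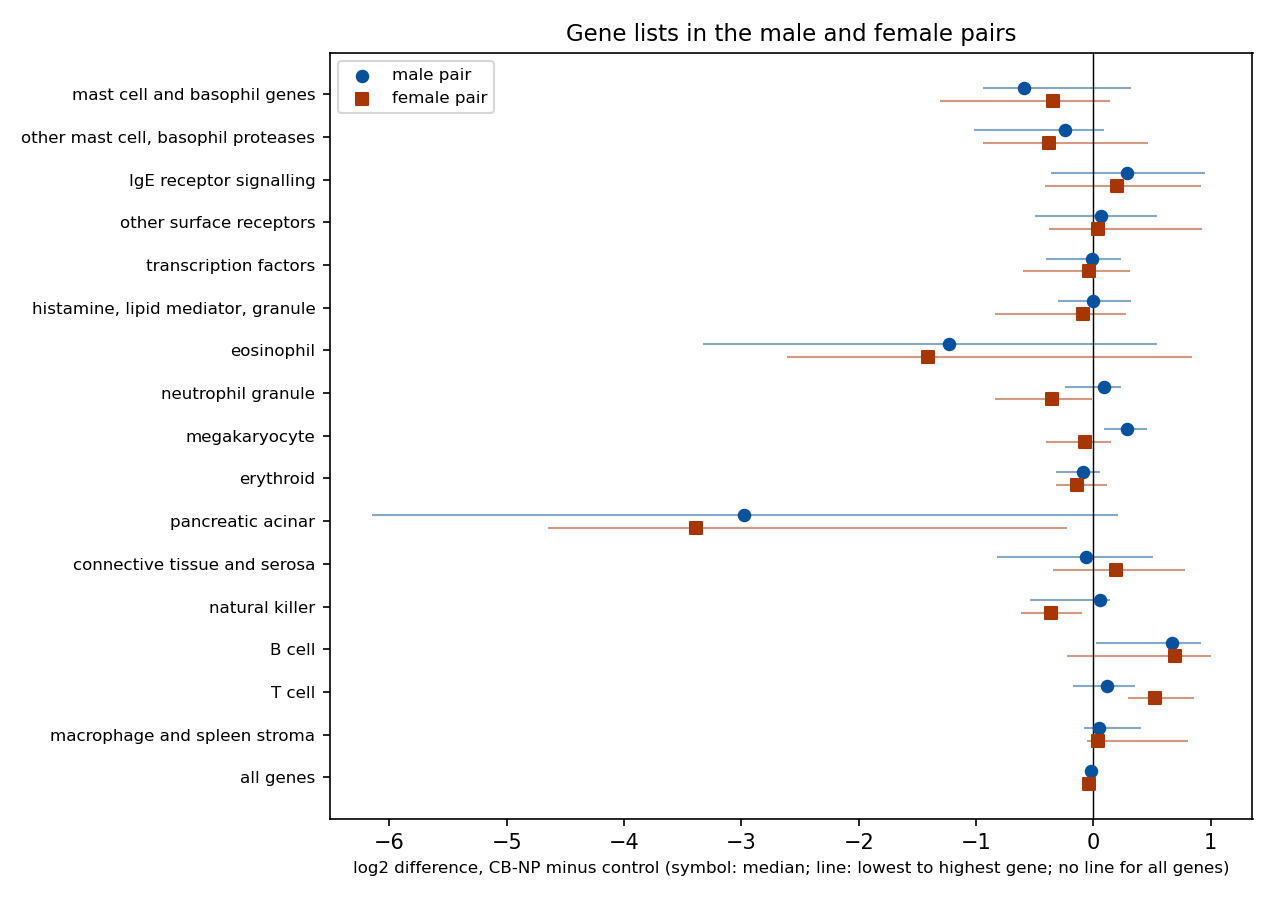
Median log2 difference of CB-NP minus control for the mast cell and basophil genes, related lists, lists of other cell types and all genes, in the male pair (circles) and female pair (squares), over genes well above background on both arrays, with lines from the lowest to the highest gene. The eosinophil and pancreatic acinar lists lie farthest below 0 and the B cell list farthest above it.

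Markers of other cells moved in the same pools, and their part in the values of the mast cell and basophil genes was not tested. Of the eosinophil list, 6 of 9 measured genes were at least 2-fold lower in each pair, beside 0.508% and 0.433% of all genes. Its medians were -1.23 and -1.41. The eosinophil levels summed over the list, on the linear scale relative to the 75th percentile, were 34 and 11.9 in males (control, then CB-NP) and 65.0 and 19.5 in females. Prg2, eosinophil major basic protein, had differences of -3.33 and -2.36 and had, like Cma1, the higher of its control levels in females (a difference of 1.08). Of the pancreatic acinar list, 6 of 8 were at least 2-fold lower in each pair, beside the same shares of all genes. Its summed levels were 20.9 and 17.5 in the controls and 2.08 and 2.13 in the CB-NP pools. Cpb1 and Pnlip were well above background on no array.

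Neutrophil granule genes had medians of 0.09 in males and -0.35 in females, beside Mcpt8 (0.02 and -0.52) and Prss34 (-0.06 and -0.41). In males 9 of 11 neutrophil genes were above 0, where 45.2% of all genes were. In females 11 of 11 neutrophil genes were below 0, where 56.7% of all genes were. Their summed levels were 1394 and 1463 in the male control and male CB-NP pool and 1468 and 1248 in the female ones. S100a9 and S100a8 had differences of 0.02 and -0.01, and -0.03 and -0.34. Natural killer genes had medians of 0.06 and -0.36, the latter -0.01 with normexp, and megakaryocyte genes, which share Gata2 with mast cells, 0.29 and -0.07.

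Connective tissue and serosa, which hold mast cells, were described by a list with medians of -0.06 in males and 0.19 in females. Below 0 were 6 of 10 and 3 of 10 of its genes, beside 54.8% and 56.7% of all genes. Lum, which encodes the proteoglycan lumican, had -0.82 in males, near Cma1 (-0.87) and Mcpt4 (-0.75), and 0.25 in females, and was singled out after its values had been seen. The list had summed levels of 136 and 136 in the male pools and 122 and 134 in the female control and CB-NP pools. The collagen genes Col1a2 and Col3a1 had differences of 0.04 and 0.10, and 0.03 and 0.16. Of the adipose markers, Adipoq, Cidec and Lep were not well above background on any array, and Fabp4, which other cells also express, had differences of 0.09 and 0.35. Erythroid genes had medians of -0.09 and -0.14, and macrophage and spleen stroma genes 0.05 and 0.04. B cell genes were higher, with medians of 0.67 and 0.70, and T cell genes had 0.12 and 0.53.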

How the data were processed

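The arrays were single-colour Agilent arrays (design 028005, build mm9) read with Feature Extraction 10.10.1.1, per the file headers. The deposited processed signal is an intensity on a linear scale, with background subtraction and detrending done array by array and no normalization between arrays. Flags of the deposited files, which are other values of 0 or 1, mark spots that are well above background or outliers. The authors' deposited value table, also an intensity, is this signal multiplied by 1 constant for each array, and its target is not stated. Per the labels, RNA was pooled for each group.

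Here log2 of the processed signal had the array's 75th percentile over non-control spots subtracted. Repeated spots were averaged without outlier spots. Of 55681 probes, 26762 matched a RefSeq accession (GRCm38.p6, used for names, gene order and promoter sequences). The probe with the highest mean signal stood for a gene. A gene entered a comparison when well above background on both arrays. If it was so on 1 array only, a bound was computed against the lowest level called well above background on the other array, or the gene's own level if higher. In the latter case, as for Fcer1a, the value is a plain ratio of readings. No bound allows for scanner error. The scanner error combines the deposited errors of both signals. limma 3.58.1 (R 4.3.3) was run on genes that 2 or more arrays showed well above background, its p-values were adjusted by Benjamini-Hochberg, and it was tested on simulated data. Tables and figures were made with Python 3.11.15, pandas 2.3.3, numpy 2.4.6 and matplotlib 3.10.9.

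The genes and lists were chosen with earlier results of these data known. The named genes were the 8 genes, those of the chymase cluster, Kit, Gata2, Fcer1g and Prss34, from each list up to 4 genes at least 2-fold different or else the 2 with the highest signal, and the 3 genes nearest to Cpa3 and to Mcpt8. Genes named outside this rule, some as background to a list, were chosen after their values were seen. Not every listed gene that met the rule is named. The design assumed a mean-pixel signal for normexp (offset 50), and the files give a median-pixel signal, which was used. Alternatives were normexp, quantile normalization, cyclic loess, median centring, the authors' scaling, all probes averaged, other detection filters and an intensity trend.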

Additional observations from a re-analysis of the deposited data

Results flagged for a closer look

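Some genes had differences of opposite sign in the 2 sexes, with a gap between them larger than its scanner error. Ccr3 and Hrh4, given above, also had opposite signs and are not listed again. For each gene listed below, 1 of the 2 differences was smaller than its own scanner error, so a reversal between the sexes was not established. Each rests on 1 pair of pools per sex, and the difference between the sexes was not tested. Mcpt8 was at -0.52 in females and 0.02 in males, a gap of -0.55 with a scanner error of 0.29. Tpsb2 was at 0.14 in females and -0.44 in males, a gap of 0.58, and its other probe was below 0 in both sexes. Outside the 8 genes, Ctsg was at -0.38 in females and 0.09 in males. Fcer1g was at -0.34 in females and 0.06 in males. Gata2 was at 0.31 in females and -0.07 in males. Gzmb was at 0.47 in females and -0.24 in males, with signals of 30.7 to 69.1 units.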

How the results depend on the processing

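Over 6 alternatives in scaling, background correction or probe choice, the 6 measured genes kept the sign of their difference in 36 of 36 cases in males, 33 of 36 in females and 36 of 36 between controls. The exceptions were Hdc (-0.09 to 0.11) and Tpsb2 (-0.03 to 0.23) in females. The differences that moved beyond their scanner error did so with normexp, which gave -0.69 for Cpa3 in males, -0.54 and -0.81 for Cma1 in males and females, and 0.45 for Cma1 between controls. Counts of genes at least 2-fold higher and lower were 50 and 72 in males, 93 and 61 in females, and 36 and 74 between controls (female over male). With normexp they were 11 and 24, 20 and 30, and 9 and 6, and with no detection filter 430 and 669, 650 and 455, and 415 and 622. Median centring moved the median of all genes by -0.11 in females and 0.12 between controls, and gave 65 and 88 in females and 57 and 46 between controls. The authors' scaling gave 69 and 61 in males and 140 and 50 in females. Quantile normalization gave 77 and 79 in females and 51 and 54 between controls, and cyclic loess 48 and 54 between controls. By limma 2 genes were higher and 10 lower at an adjusted p of 0.05, and with normexp 359 and 253, median centring 173 and 174, and an intensity trend 227 and 154. They were 0 and 3 with quantile normalization (1976 at an unadjusted p of 0.05) and with cyclic loess (1968), 0 and 2 with the authors' scaling (2147), 0 and 0 with no filter (1363), and 0 and 0 over genes well above background on all 4 arrays (2114). The cause of these changes was not tested. The limma model, with its sex term, estimated the CB-NP effect shared by the sexes and tested no effect within a single sex. No block by replicate number could be added and no replicate left out, since each group had 1 pool. Signals near background limit Ms4a2, Fcer1a, Mcpt1 and Tph1 to bounds, to ratios with a reading not well above background, or to no fold.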
